A study of Mus musculus with 14 samples.

Results

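The genes described here encode subunits of the mitochondrial respiratory chain and of the ATP synthase it drives, with the complex I assembly factors that share the same name stem. They were chosen by gene symbol alone, as every gene measured by a probe set with a single symbol that began with Nduf, Uqcr, Cox4, Cox5, Cox6, Cox7, Cox8 or Atp5. Where a gene had several probe sets, the one with the highest mean over all arrays stood for it. This gave 80 of the 12393 genes measured, sorted by symbol: 34 subunits of complex I, 5 complex I assembly factors, 8 subunits of complex III, 16 of complex IV and 17 of complex V. Ndufa4 is counted in complex I and Cox7a2l in complex IV, where their symbols put them, although later work placed both otherwise.

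The cells were mouse hepatoblasts, progenitors of the fetal liver, taken from wild-type embryos at day 14 and immortalised by growing them out at clonal density. They were compared on 14 Affymetrix mouse expression arrays, with 2 cultures in each of 7 groups. On plates coated with rat tail collagen there were cells with an empty vector, with wild-type IDH1, with the IDH1 mutant R132C, with wild-type IDH2 and with the IDH2 mutant R172K. On uncoated plates, used for up to 5 days as the study's setting for hepatocyte differentiation, there were vector cells and R132C cells. All constructs were in a system induced by doxycycline, and the protocol names 25 ng/mL for the IDH1 experiments. Whether the vector and IDH2 cultures received it, which species the IDH sequences came from, and whether all groups go back to 1 clone, the sources used here do not say.

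The chain passes electrons from NADH and succinate to oxygen and pumps protons across the inner mitochondrial membrane. Complex I takes the electrons of NADH, complex III passes them from ubiquinol to cytochrome c, complex IV hands them to oxygen, and complex V lets the protons flow back to make ATP. Most subunits are encoded in the nucleus, where the nuclear respiratory factor NRF1, the ETS-family factor GABP, YY1 and the estrogen-related receptor alpha (ERRA), with the PGC-1 coactivators, are known regulators of these genes. Mature hepatocytes are rich in mitochondria. IDH1 in the cytosol and IDH2 in mitochondria turn isocitrate into 2-oxoglutarate, and the mutants turn 2-oxoglutarate into 2-hydroxyglutarate.

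Short stretches of the promoters of the 4 genes with the firmest changes are shown first, because 2 of these genes rose and the others fell on uncoated plates. The sequences are from RefSeq (build GRCm38.p6), read 5′ to 3′ on the strand of the gene, with the motif match in capitals.
Ndufa6: ccgtggcaccGCGCGTGCGCacgctgaagg
Uqcrh: gtatgccgcaCTTCCGGccaggtcgcc
Ndufaf4: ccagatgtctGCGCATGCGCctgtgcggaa
Ndufaf5: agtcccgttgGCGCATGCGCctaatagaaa
The Ndufa6 stretch lies at chr15:82354249-82354278 on the minus strand, and its match to the NRF1 motif (GCGCA, any base, GCGC), on the opposite strand of the gene, begins 24 bases after the transcription start. The Uqcrh stretch lies at chr4:116075064-116075090 on the minus strand, and its match to the ETS motif CCGGAAG, also on the opposite strand, begins 10 bases before the start. The Ndufaf4 stretch lies at chr4:24897960-24897989 on the plus strand, with the NRF1 match beginning 113 bases before the start. The Ndufaf5 stretch lies at chr2:140170652-140170681 on the plus strand, with the NRF1 match beginning 17 bases after the start. An NRF1 match thus stood near the start of a gene that rose and of both genes that fell.

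Windows of 300 bases, from 250 before to 50 after the start, were present for 67 of the 80 genes and were searched on both strands for 4 motifs. The ETS motif ends and the YY1 motif begins with AAG, so matches to them can overlap. The NRF1 motif was found in 14 of them (20.9%), against 9.36% of the 9887 genes of the arrays with a window and 5.19% of all 27025 genes with one. The ETS motif CCGGAAG was found in 16 (23.9%, against 16.3% and 9.93%), the YY1 motif AAGATGGC in 9 (13.4%, against 4.39% and 3.19%) and the ERRA motif TCAAGGTCA in 1 (1.49%, against 0.344% and 0.466%). The complexes were not alike: the NRF1 motif stood in 6 of 15 complex V windows (40.0%) and in 4 of 31 complex I windows (12.9%), and the YY1 motif in 6 complex I windows (19.4%) and in 0 of 11 complex IV windows. These counts describe letters in the windows and were not tested.

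The 14 arrays had median intensities between 134.95 and 148.25, and the 2 arrays of a group had a correlation across genes of 0.994 to 0.998. The array of R172K replicate 1 stood apart with the lowest median, 134.95 against 145.9 in replicate 2. The correlation between the 2 R172K arrays was the lowest of the groups, a value that belongs to both arrays. Over all genes, the SD between replicates was 0.22 log2 units for R172K and 0.13 to 0.17 in the other groups. Of the fixed hepatoblast markers, 8 of 10 measured lay above the median level of all genes, among them Afp, Hnf4a and Krt19. Dlk1 and Igf2 lay below it, with means of 5.32 and 5.56. None of the 6 markers of mature hepatocytes lay above it, Alb and Cps1 included, and none of the 5 endothelial or 6 blood markers. Of 8 mesenchymal markers 1 did (Vim), and of 7 markers of muscle, heart and testis 1 did (Tnnt2). On uncoated plates 0 of the 6 mature hepatocyte markers rose in either cell (15.1% and 13.6% of all genes). In vector cells 0 fell and in R132C cells 1 fell (14.2% and 12.3% of all genes), with median changes of 0.04 and -0.21. The leukocyte marker Ptprc rose on uncoated plates, by 1.73 in vector and 1.19 in R132C cells, at levels of at most 6.45, and its part in the results was not tested. Among the 6 blood markers, 1 rose and 0 fell in each cell, where 15.1% and 13.6% of all genes rose. Their median changes were 0.09 in vector and -0.04 in R132C cells. The number of arrays, 2 per group, limits the precision of every value, and values at or under a log2 level of about 4.8, the lower quartile of the arrays, are close to background.

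The respiratory chain genes were among the most strongly detected in these cells. Their median level was 12.02 (log2 intensity) against 7.79 over all genes, and 67 of the 80 lay above the upper quartile of 9.89. All 17 complex V genes and all 8 complex III genes were above that quartile, as were 33 of 34 complex I subunits and 9 of 16 complex IV genes. The 5 assembly factors were lower, with means from 8.29 (Ndufaf5) to 9.80 (Ndufaf4). Only 8 genes lay below the median of all genes. Of these, Cox4i2, Cox6a2, Cox6b2, Cox7a1, Cox8b and Cox8c are isoforms known from lung, muscle, heart or testis, and the others were Cox7c and Ndufb1. Their ubiquitous partners Cox4i1, Cox6a1, Cox6b1, Cox7a2 and Cox8a were all above the upper quartile. The highest probe set of each group was that of Ndufa7 in complex I, Uqcrb in complex III, Cox6a1 in complex IV and Atp5b in complex V. A probe set's level also depends on its probes, so these are places within the array and not amounts of RNA.

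These genes varied less than others. The range between the 7 group means was 0.26 (median over the 80 genes) against 0.38 over all genes, and it exceeded 0.5 for 8 of the 80 (10.0%) against 35.6% of all genes. The SD between replicates was smaller as well, 0.08 against 0.13. Their levels were also higher than those of most genes, and the part of level in this was not tested. The plot of median relative level by array shows the size of the shifts: the medians of complexes I, III, IV and V ran from -0.18 (complex IV in R172K replicate 1) to 0.18 (complex III in vector uncoated replicate 1).

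**Figure D1:**
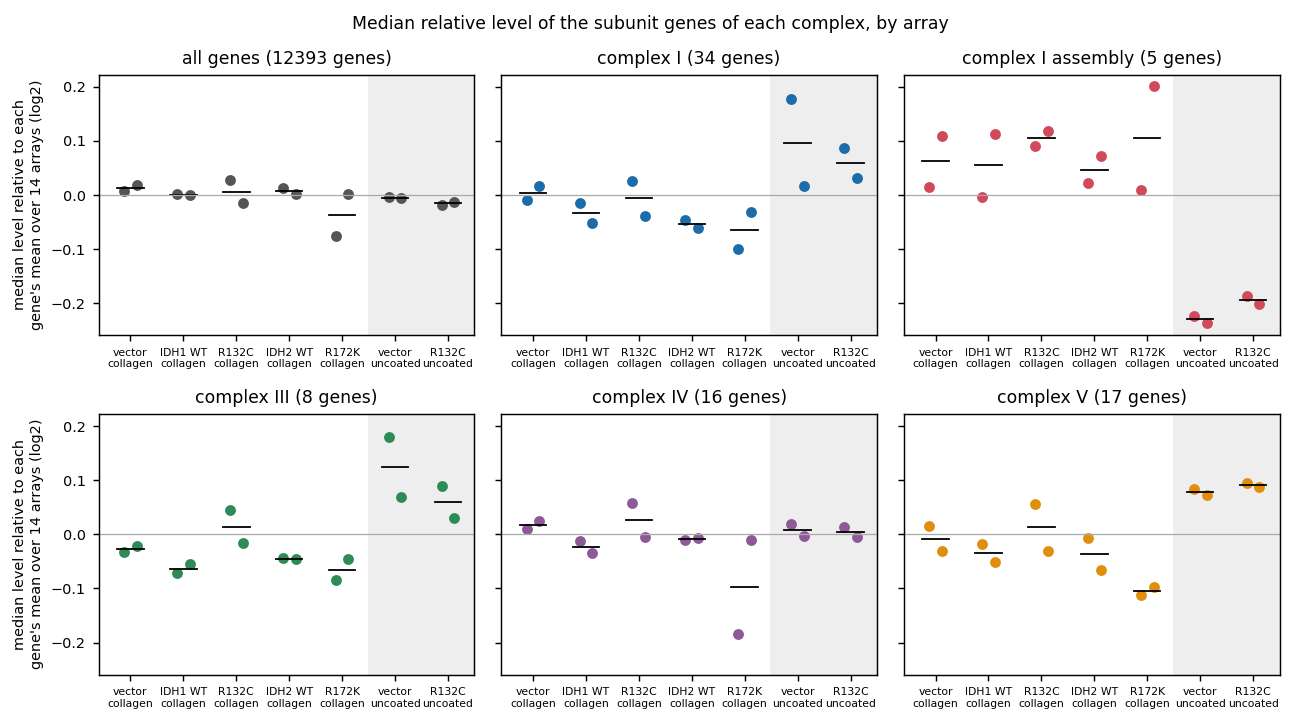
Median level of the genes of each complex in each array, relative to each gene's mean over the 14 arrays (log2, vertical axis), by group (horizontal axis). Points are arrays, bars are means of the 2 arrays of a group, and grey shading marks uncoated plates. Complex V was higher and the assembly factors lower in all 4 uncoated arrays than in all collagen arrays, complexes I and III overlapped between the plates, complex IV was near 0 on uncoated plates, and R172K replicate 1 was the lowest array for complexes I, III, IV and V.

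The largest differences were between plates. In vector cells on uncoated plates, 8 of the 80 genes rose and 2 fell (limma, Benjamini-Hochberg adjusted p under 0.05), against 15.1% and 14.2% of all genes. Thus 12.5% of the respiratory chain genes were called where 29.3% of all genes were. In R132C cells 11 rose and 5 fell, 20.0% against 25.9% of all genes (13.6% rose and 12.3% fell). In neither cell were these genes called more often than the array as a whole. The rises outnumbered the falls, and the median change of the 80 genes was 0.08 in vector cells and 0.06 in R132C cells, where the medians over all genes were -0.02 and -0.03. At an unadjusted p under 0.05 there were 27 genes in vector cells (37.9% of all genes) and 26 in R132C cells (36.4% of all genes). The split depends on scaling, and the share of all genes called after centring is not given here. With each array centred on its median, 5 rose and 4 fell in vector cells and 7 rose and 8 fell in R132C cells, and the medians were 0.05 and 0.01, against -0.05 and -0.07 over all genes.

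A single array moved these counts by more than 1.5 times. Each such fit leaves 1 array in a group, and the share of all genes called in it is not given here. The counts therefore do not show whether these genes lost calls more often than others. In vector cells leaving out an array lowered or raised the count, depending on the array. In vector cells the count of called genes fell from 10 to 3 without vector uncoated replicate 1 and to 4 without vector collagen replicate 1. The median change fell to 0.02 without that uncoated array. In R132C cells the 16 calls became 4 to 6 whichever of the 4 R132C arrays was left out. The calls of Ndufa6, Uqcrh and Ndufaf5, in both cells, and of Ndufaf4 in R132C cells, held under all 11 alternatives tried.

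RNA of the whole culture was measured, so fewer cells of a type and less RNA per cell cannot be told apart. The dividing-cell markers moved with the plate. All 9 measured fell in vector cells (median change -1.54), where 14.2% of all genes fell. In R132C cells 8 of 9 fell (median -1.01), where 12.3% of all genes did, and none rose in either cell. Their summed level was 14.62 to 15.00 in the vector arrays on collagen and 13.67 to 13.89 on uncoated plates, and 15.06 to 15.07 and then 14.14 to 14.46 in R132C arrays. None of these markers was near 0, and their part in the changes below was not tested.

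Complex I had the largest rise of all, in Ndufa6, an accessory subunit of the LYR family in the arm that holds the NADH site. Its level was 11.46 and 11.73 in the vector arrays on collagen and 12.33 and 12.18 on uncoated plates. In R132C arrays it was 11.44 and 11.47 on collagen and 12.15 and 12.20 on uncoated plates. In the other collagen arrays it lay between 11.27 and 11.59, so every uncoated array was above every collagen array. The change was 0.66 ± 0.11 (SE), or 1.58-fold, in vector cells (limma, adjusted p = 0.000471) and 0.72 ± 0.11, or 1.65-fold, in R132C cells (limma, adjusted p = 0.000415), with n = 2 arrays per group and a 95% interval of 0.43 to 0.90 and 0.49 to 0.95.

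Other accessory subunits of complex I rose by less. Ndufa3, of the membrane arm, rose by 0.23 in vector and 0.29 in R132C cells, and Ndufa7, of the part that binds NADH, by 0.24 and 0.22. Both were called in both cells, and all their probe sets had the same direction: 1 other for Ndufa3 and 4 others for Ndufa7. Under the 11 alternatives the Ndufa3 call held in 6 (vector cells) and 9 (R132C cells), and the Ndufa7 call in 7 and 4. In vector cells Ndufb10, of the far end of the membrane arm, rose by 0.35, and Ndufs3, a core subunit near the ubiquinone site, by 0.25. Their values in R132C cells were 0.14 and 0.17 and were not called. Without vector uncoated replicate 1 the changes in vector cells were 0.23 and 0.14 and were not called (limma, adjusted p = 0.226 and 0.382). In R132C cells Ndufv3, an accessory subunit of the NADH part, rose by 0.40, and Ndufa13, also known as GRIM-19, by 0.25. Their values in vector cells were 0.27 and 0.18 and were not called. With the change in 1 cell not shown to differ from that in the other, none of these genes can be called particular to vector or R132C cells.

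In R132C cells 2 core subunits of complex I fell, both of which hold iron-sulfur clusters: Ndufs8 by 0.28 and Ndufs1 by 0.27 (limma, adjusted p = 0.0149 and 0.0493). Their changes in vector cells were -0.21 and -0.21 and were not called. Other core subunits with such clusters were not called in either cell: Ndufs7 changed by 0.19 and 0.06, Ndufv1 by 0.01 and -0.00061, and Ndufv2 by 0.12 and 0.17. The R132C arrays for Ndufs8 read 12.90 and 12.87 on collagen and 12.61 and 12.60 on uncoated plates, without overlap. All 5 other probe sets of Ndufs8 were lower on uncoated plates too, with changes of -0.24 to -0.10 in R132C cells. Ndufs1 lost its call under 5 of 11 alternatives and Ndufs8 under 4.

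Of the 5 complex I assembly factors, 2 fell in each cell (14.2% of all genes in vector and 12.3% in R132C cells). In R132C cells 1 rose (13.6% of all genes). Assembly factors build complex I and are absent from the finished enzyme. Ndufaf4, which acts early in assembly with Ndufaf3, read 10.15 and 9.72 in vector arrays on collagen and 9.24 and 9.42 on uncoated plates. In R132C arrays it read 10.30 and 10.15 and then 9.43 and 9.37. Every uncoated array was below every collagen array, the lowest of which was that vector array at 9.72. The change was -0.61 ± 0.14 (SE) in vector cells (limma, adjusted p = 0.00432) and -0.82 ± 0.14 in R132C cells (limma, adjusted p = 0.000824), or 1.53-fold and 1.77-fold lower. Its second probe set changed by -0.61 and -0.72. In vector cells the change was -0.39 without vector collagen replicate 1 (limma, adjusted p = 0.0637) and -0.52 without vector uncoated replicate 1 (limma, adjusted p = 0.0521), and neither was called.

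Ndufaf5, which hydroxylates an arginine of the core subunit Ndufs7, had the smallest adjusted p of the 80 genes in both cells. It read 8.47 and 8.46 in vector arrays on collagen and 7.76 and 7.78 on uncoated plates. In R132C arrays it read 8.46 and 8.44 and then 7.87 and 7.68, and the other collagen arrays lay between 8.46 and 8.64. The groups were far apart for the spread within them. The change was -0.70 ± 0.10 (SE) in vector cells (limma, adjusted p = 0.000199) and -0.67 ± 0.10 in R132C cells (limma, adjusted p = 0.000412), or 1.62-fold and 1.60-fold lower.

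The remaining assembly factors did not all follow. Ndufaf3, the partner of Ndufaf4, rose by 0.44 in R132C cells (limma, adjusted p = 0.0460) and changed by 0.29 in vector cells, where the replicates overlapped (8.91 and 9.22 on collagen, 9.51 and 9.20 on uncoated plates). Ndufaf7, a methyltransferase that acts in assembly, changed by -0.25 and -0.30 and was not called (limma, adjusted p = 0.119 and 0.0683), although all 4 uncoated arrays lay below all 10 collagen arrays. Ndufaf1, which acts on the membrane arm, changed by -0.04 and -0.13 and was not called. The plot of 6 genes by array shows Ndufaf4 and Ndufaf5 beside subunits that rose.

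**Figure D2:**
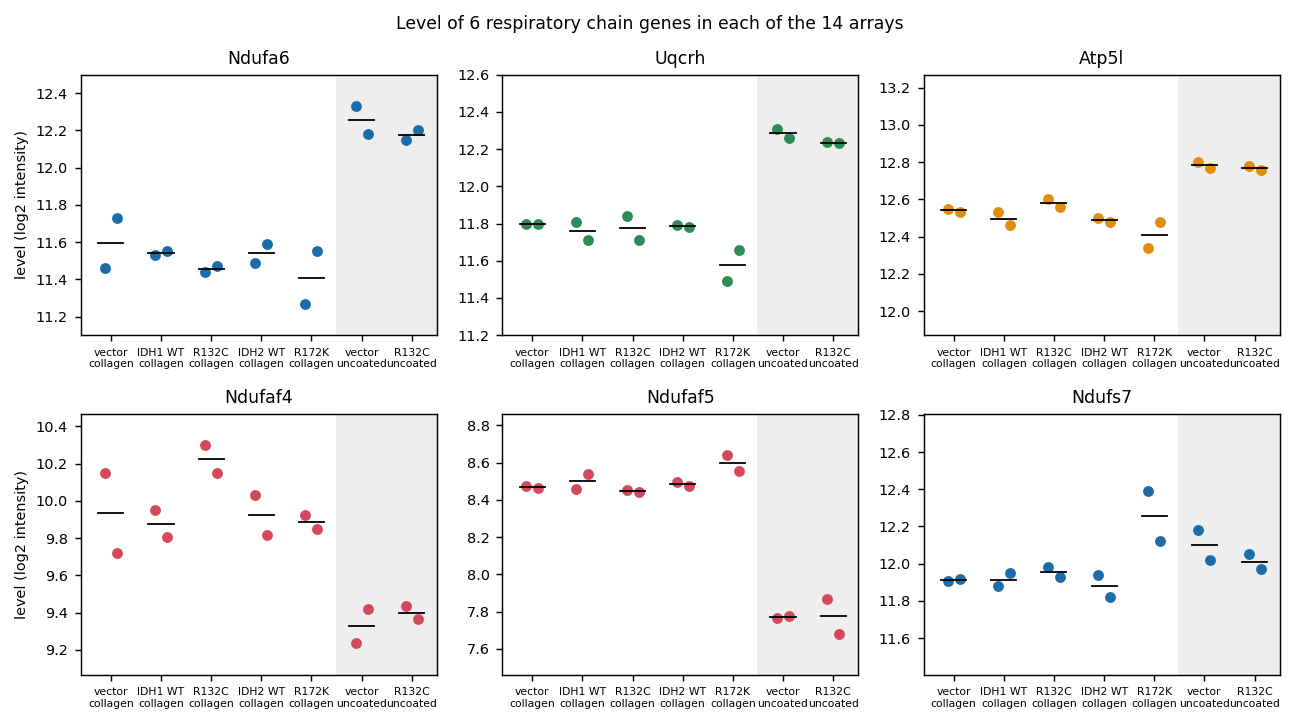
Level of 6 respiratory chain genes (log2 intensity, vertical axis, a scale of its own in each panel) in each array, by group (horizontal axis). Points are arrays, bars are means of the 2 arrays, and grey shading marks uncoated plates. Ndufa6, Uqcrh and Atp5l were higher and Ndufaf4 and Ndufaf5 lower in all 4 uncoated arrays than in all 10 collagen arrays, and Ndufs7 was highest in R172K replicate 1.

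In complex III the same 1 of 8 genes was called in each cell, where 29.3% of all genes were in vector and 25.9% in R132C cells. Uqcrh, the acidic hinge protein beside cytochrome c1, read 11.80 in both vector arrays on collagen and 12.31 and 12.26 on uncoated plates. In R132C arrays it read 11.84 and 11.71 and then 12.24 and 12.23. Every uncoated array was above every collagen array, of which R172K replicate 1 was lowest at 11.49. The change was 0.48 ± 0.08 (SE) in vector cells (limma, adjusted p = 0.000501) and 0.46 ± 0.08 in R132C cells (limma, adjusted p = 0.000985). In vector cells 7 of the 8 complex III genes and in R132C cells 5 of 8 had a change above 0, and the medians were 0.15 and 0.07. The lowest change in both was that of Uqcrq, the small ubiquinone-binding subunit, at -0.32 ± 0.18 and -0.42 ± 0.18, which was not called (limma, adjusted p = 0.214 and 0.104).

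Of the 16 complex IV genes, 7 of which lay below the median level of all genes, 0 were called in vector cells (limma, 29.3% of all genes) and 0 in R132C cells (25.9% of all genes). At an unadjusted p under 0.05 there were 3 and 2 (37.9% and 36.4% of all genes), and the median changes were 0.01 in both. Whether the complex differs from the others in this was not tested. Cox4i1, a core-bound subunit of the ubiquitous form, changed by 0.15 with a 95% interval of 0.02 to 0.29 in vector cells and by 0.11 (-0.02 to 0.24) in R132C cells. These intervals leave room for a change of up to 1.22-fold and 1.18-fold. The largest values in the complex, chosen after they were seen, were those of Cox7c, at -0.72 ± 0.26 (SE) and -0.74 ± 0.26, which missed the threshold in both cells (limma, adjusted p = 0.0514). Both of its probe sets were below the median of all genes. The Cox7c arrays on collagen ran from 6.54 to 7.54 and those on uncoated plates from 6.11 to 6.44, with no overlap.

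In complex V, 2 of 17 genes rose in vector cells (15.1% of all genes), and 4 rose and 1 fell in R132C cells (13.6% and 12.3% of all genes). Atp5h, subunit d of the peripheral stalk, rose in both cells, by 0.23 ± 0.08 (SE) and 0.26 ± 0.08 (limma, adjusted p = 0.0386 and 0.0269). It read 12.83 and 12.76 in vector arrays on collagen and 13.04 and 13.02 on uncoated plates, and 12.80 and 12.69 and then 13.00 and 13.01 in R132C arrays. All 4 uncoated arrays were above all 10 collagen arrays, and its other probe set changed by 0.30 in both cells. The Atp5h call held under 5 of 11 alternatives in vector cells and 6 of 11 in R132C cells. Atp5l, subunit g in the membrane, rose by 0.25 in vector cells and changed by 0.19 in R132C cells.

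In R132C cells the epsilon subunit Atp5e of the central stalk rose by 0.27 and the small membrane protein Atp5md, also known as DAPIT, by 0.22. The catalytic-head subunit Atp5a1 fell by 0.25 there (limma, adjusted p = 0.0250). Its 4 uncoated arrays were below all collagen arrays, but of its other probe sets the brighter changed by 0.01 (vector) and -0.03 (R132C), while the dimmer changed by -0.41 and -0.29. Of the 3 genes that encode the same mature c subunit of the rotor, Atp5g2 rose by 0.36 in R132C cells, Atp5g1 changed by -0.17 and Atp5g3 by 0.06. The Atp5g2 call rests on 1 probe set. The other, at a level of 5.75, changed by -0.44, and the mean of both gave -0.04.

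Taking the plates across both cells, 21 of the 80 genes were higher in all 4 uncoated arrays than in all 10 collagen arrays, where 15.2% of all genes were, and 5 were lower in all, where 13.6% of all genes were. The 5 were Ndufaf4, Ndufaf5, Ndufaf7, Atp5a1 and Cox7c. Those higher were 8 of complex I, 3 of complex III (Uqcrh, Uqcrb and Uqcr10), 3 of complex IV (Cox4i1, Cox5b and Cox6b1) and 7 of complex V.

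**Figure D3:**
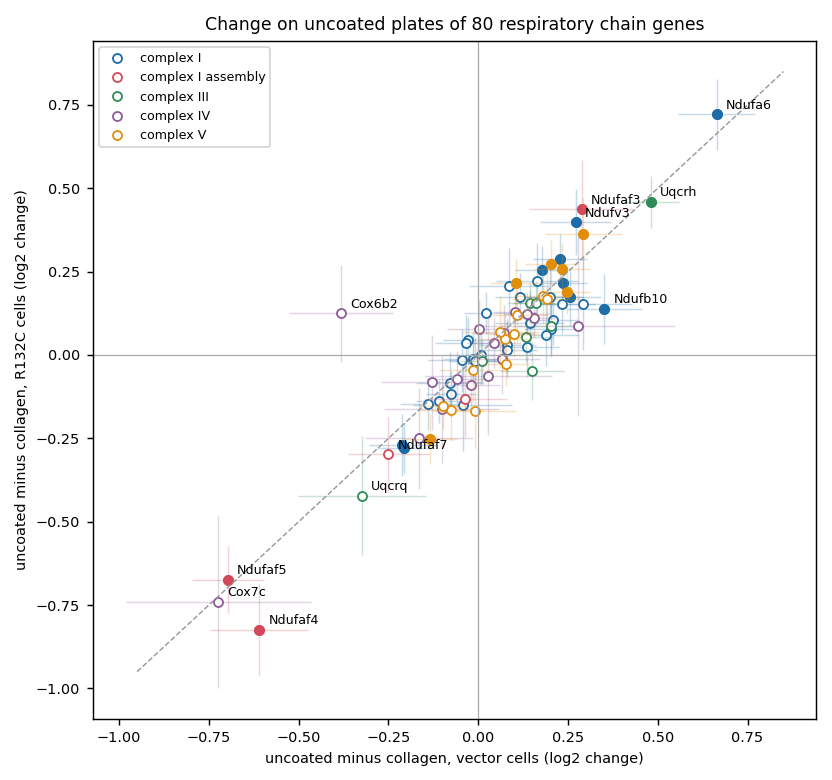
Change between uncoated and collagen plates (log2) in vector cells (horizontal axis) and in R132C cells (vertical axis) for each of the 80 genes, coloured by complex. Filled points were called in at least 1 of the cells, lines are 1 SE each way, and the dashed line marks equal change. Ndufa6 and Uqcrh lie highest at the top right, and Ndufaf4, Ndufaf5 and the uncalled Cox7c at the lower left.

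The plate effects of the vector and R132C cells share no array, and 5 rises (Ndufa6, Uqcrh, Ndufa3, Ndufa7 and Atp5h) and 2 falls (Ndufaf4 and Ndufaf5) were called in both, where 10.8% of all genes rose and 9.98% fell in both. No gene was called in opposite directions, among the 80 or over all genes (0.0%). The difference between the effects was called for 0 of the 80 genes (limma, background 0.25% of all genes), and 1 had an unadjusted p under 0.05 (5.6% of all genes), the testis isoform Cox6b2, whose level is close to background. The 95% interval of the difference lay within 1.5-fold for 73 of the 80 genes and within 2-fold for 79. On uncoated plates R132C and vector cells differed in 0 of the 80 genes (limma, background 2.39%), with 0 at an unadjusted p under 0.05 (13.2% of all genes) and an interval within 1.5-fold for 78. The dividing-cell markers were higher in R132C than in vector cells there, with a median difference of 0.65. Of the 9, 3 were called and all had an unadjusted p under 0.05, and the 3 calls were lost without replicate 1 of either group.

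The other genes of the chain and its carriers changed in both directions. In vector cells 4 of 20 rose and 3 fell (15.1% and 14.2% of all genes), and in R132C cells 5 rose and 5 fell (13.6% and 12.3% of all genes). The electron transfer flavoprotein genes rose: Etfdh, which feeds electrons of fatty acid oxidation into ubiquinone, by 0.62 ± 0.09 (SE) and 0.63 ± 0.09, and Etfb by 0.49 and 0.39. Dhodh, which feeds in electrons of pyrimidine synthesis, fell by 0.82 ± 0.13 and 0.76 ± 0.13 (limma, adjusted p = 0.000344 and 0.000858). Slc25a5, an ADP/ATP carrier known from dividing cells, fell by 0.41 and 0.46. Cyc1, the cytochrome c1 of complex III beside which Uqcrh sits, fell by 0.48 in R132C cells and changed by -0.28 in vector cells.

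Assembly factors outside the name stems were split. In vector cells 3 of 16 measured rose and 2 fell, near the 15.1% and 14.2% of all genes, and in R132C cells 2 rose and 6 fell (13.6% and 12.3% of all genes). Cox18, which inserts a complex IV subunit into the membrane, fell by 0.63 ± 0.10 (SE) and 0.91 ± 0.10. The complex IV factors Surf1 and Sco2 rose by 0.54 and 0.52, and by 0.58 and 0.57. Cox19 rose by 0.59 in vector cells, and Ttc19 of complex III fell by 0.67 in R132C cells. Cox19 was 1.26-fold higher on uncoated plates in R132C cells and Ttc19 1.285-fold lower in vector cells, neither of them called. Foxred1 of complex I fell by 0.49 and 0.55, and its call was lost without any 1 of the 4 vector arrays.

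Of the mitochondrial ribosomal proteins, 2 of 74 rose and 8 fell in vector cells (15.1% and 14.2% of all genes) and 4 rose and 13 fell in R132C cells (13.6% and 12.3% of all genes). The median changes were -0.09 and -0.12, against 0.08 and 0.06 for the respiratory chain genes. Mrps28 fell by 0.50 in both cells, Mrps25 by 0.44 and 0.42, and Mrpl12 by 0.38 and 0.51, while Mrpl24 rose by 0.39 and 0.47. With the mean of its probe sets Mrps25 was not called in either cell. With 1 array left out the falls numbered 1 to 5 and 2 to 8. Of the 42 cytosolic ribosomal proteins, 0 rose and 5 and 3 fell, with medians of -0.03 and 0.01. Of 9 genes of mitochondrial DNA upkeep and transcription, 0 rose and 2 and 1 fell: Top1mt by 0.36 and 0.51, and Lonp1 by 0.71 in vector cells. Under 6 of 11 alternatives Lonp1 was not called. In R132C cells Lonp1 was 1.49-fold lower on uncoated plates and was not called.

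Of 9 antioxidant enzymes, 3 rose and 1 fell in each cell, where 15.1% and 14.2% of all genes rose and fell in vector cells and 13.6% and 12.3% in R132C cells. Catalase (Cat), the peroxisomal enzyme that splits hydrogen peroxide, rose by 0.82 ± 0.10 (SE) and 1.06 ± 0.10 (limma, adjusted p = 5.41e-05 and 3.17e-05). The cytosolic superoxide dismutase Sod1 rose by 0.42 and 0.31, and the mitochondrial Glrx2 by 0.40 and 0.36. With the mean of its probe sets Sod1 was not called in either cell (0.07 in vector cells and 0.12 in R132C cells). The falls were of the mitochondrial Txnrd2 by 0.33 in vector cells and Txn2 by 0.33 in R132C cells. Txnrd2 was 1.13-fold lower in R132C cells and Txn2 1.18-fold lower in vector cells, neither of them called. The calls of Sod1 in R132C cells and of Txnrd2 were each lost under 6 of 11 alternatives.

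Among 10 known regulators of these genes, 2 rose and 4 fell in vector cells (15.1% and 14.2% of all genes), and 1 rose and 4 fell in R132C cells (13.6% and 12.3% of all genes). Ppargc1a, which encodes PGC-1 alpha, read 5.70 and 5.61 in vector arrays on collagen and 8.02 and 7.72 on uncoated plates. In R132C arrays it read 5.70 and 5.61 and then 7.59 and 7.59. It rose by 2.22 ± 0.27 (log2, SE) and 1.93 ± 0.27 (limma, adjusted p = 6.25e-05 and 0.000277). The other collagen arrays lay between 4.67 and 5.86, in the range of markers of other tissues such as Ckm (mean 5.65). Detection calls were not used here, so whether the collagen arrays were above background is not known and no fold is given.

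Ppargc1b, the coactivator PGC-1 beta, read 6.89 and 6.31 in vector arrays on collagen and 8.07 and 7.78 on uncoated plates, a rise of 1.32 ± 0.21 (SE; limma, adjusted p = 0.000442). In R132C arrays it read 7.50 and 7.24 on collagen and 7.68 and 7.47 on uncoated plates, a change of 0.21 that was not called (limma, adjusted p = 0.541). The R132C arrays on collagen were already above the vector arrays there. The difference between the plate effects, -1.11 ± 0.30, was not called (limma, adjusted p = 0.277).

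Genes of the transcription factors fell or held. Gabpb1, the beta subunit of GABP, fell by 1.27 ± 0.18 (SE) and 1.29 ± 0.18, or 2.41-fold and 2.44-fold lower. Nrf1 fell by 0.75 ± 0.14 and 0.76 ± 0.14, Myc by 0.95 and 0.46 (the latter not called without R132C collagen replicate 1 or uncoated replicate 2), and the coactivator Pprc1 by 0.52 and 0.51. Gabpa, the DNA-binding subunit of GABP, changed by 0.02 ± 0.09 in vector cells and Esrra, the gene of ERRA, by 0.18 ± 0.12 and 0.23 ± 0.12, none of them called; both were added to the text after their values were seen. Levels of RNA do not give the activity of these factors. The promoter windows of the 14 risen genes that had one held the NRF1 motif in 3 and the ETS motif in 6, and those of 3 fallen genes held them in 2 and 1, numbers too small to read.

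**Figure D4:**
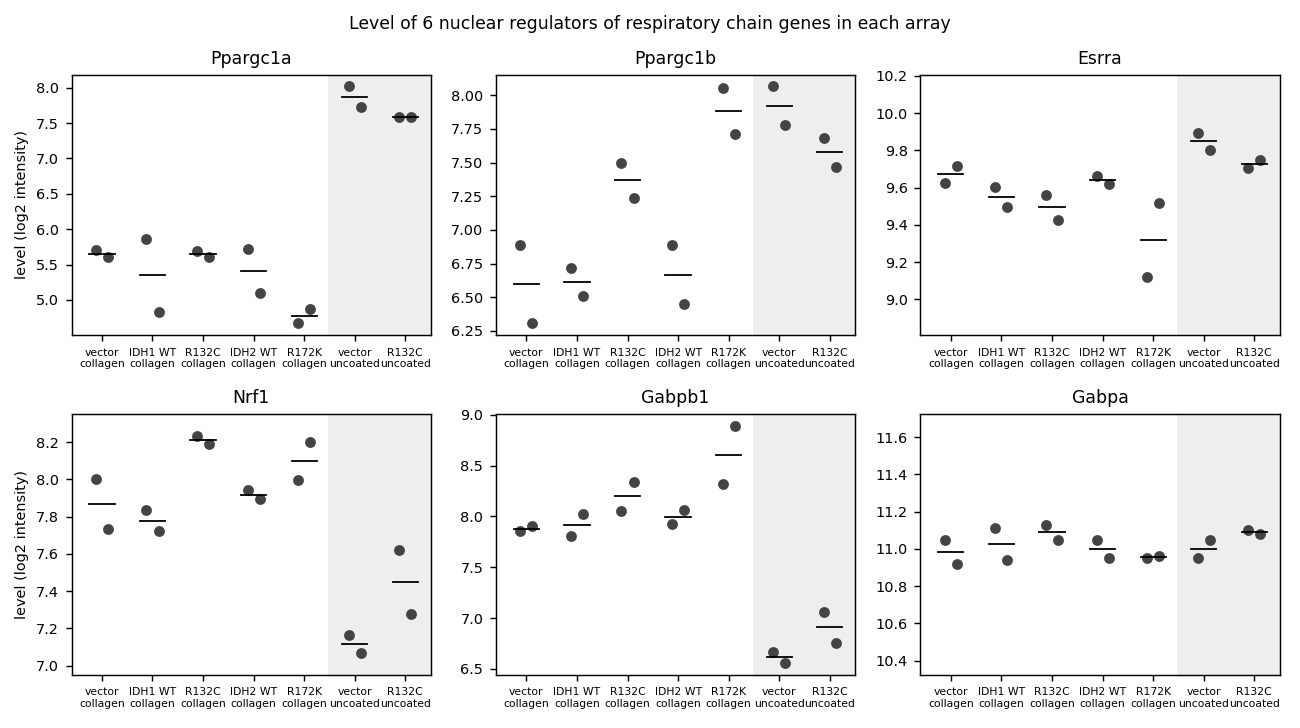
Level of 6 nuclear regulators (log2 intensity, vertical axis, a scale of its own in each panel) in each array, by group (horizontal axis). Points are arrays, bars are means of the 2 arrays, and grey shading marks uncoated plates. Ppargc1a was higher and Nrf1 and Gabpb1 lower in all 4 uncoated arrays than in all 10 collagen arrays, and Ppargc1b was high on uncoated plates and in both mutants on collagen.

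On collagen the mutants were set against their wild types. With R132C against wild-type IDH1, 0 of the 80 genes were called (limma, background 0.0484%), and 3 had an unadjusted p under 0.05 (7.52% of all genes). The median change was 0.04, against 0.01 over all genes. The 95% interval lay within 1.5-fold for 76 genes and within 2-fold for all 80. The largest rise among the assembly factors was 0.35 for Ndufaf4, with an interval of 0.05 to 0.64 and an adjusted p of 0.566 by limma. Its R132C arrays read 10.30 and 10.15 and those with wild-type IDH1 9.95 and 9.81, without overlap.

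With R172K against wild-type IDH2, 0 of the 80 genes were called as well (limma, background 1.73%), while 10 had an unadjusted p under 0.05, 2 higher and 8 lower (16.9% of all genes, 5.78% higher and 11.1% lower). The smallest adjusted p was 0.0663 (limma), for Ndufs7, a core subunit of complex I that carries the last iron-sulfur cluster before ubiquinone. Ndufs7 read 12.39 and 12.12 in the R172K arrays and 11.94 and 11.82 with wild-type IDH2, a change of 0.37 ± 0.09 (SE). The collagen arrays of the other groups lay between 11.88 and 11.98, below both R172K arrays. The median change was -0.04, against -0.05 over all genes, and its sign was turned by cyclic loess (0.03), by centring the arrays (0.02) and by leaving out replicate 1 (0.01). The interval lay within 1.5-fold for 77 of the 80 genes.

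The outcome for R172K rests on which array is used. The share of all genes called is given below for replicate 1 alone and not for replicate 2 alone. The counts of the arrays can therefore not both be set against all genes. With R172K replicate 1 alone, 22 of the 80 genes were called (18.8% of all genes), 9 higher and 13 lower, and with replicate 2 alone none was, the smallest adjusted p being 0.275 (limma; with the lone array taken to have the spread of the rest). The 22 held 8 genes of complex I, 1 of complex III, 8 of complex IV and 5 of complex V. Across all genes 2332 were called with replicate 1 alone. Atp5j2, a small membrane subunit of complex V, shows the gap: it read 12.51 and 12.80 in the R172K arrays and 12.92 and 12.93 with wild-type IDH2, a change of -0.42 with replicate 1 alone and -0.13 with replicate 2 alone. Cox6a1 read 13.66 and 13.98 against 13.94 and 13.96, so that only replicate 1 was low. Ndufs7, Atp5j2 and Cox6a1 were chosen after their values were seen.

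With both mutants set against their wild types in 1 comparison, 0 of the 80 genes were called (limma, background 3.61%) and 10 had an unadjusted p under 0.05 (17.3% of all genes), with a smallest adjusted p of 0.0702 for Cox6b2. Intervals lay within 1.5-fold for 77 genes and within 2-fold for all 80. Without R172K replicate 2, 12 genes were called (14.5% of all genes). The mutants' effects differed for 0 of the 80 genes (limma, background 0.0%), with 1 at an unadjusted p under 0.05 (5.27% of all genes), Ndufs7 at 0.34 ± 0.13 (SE). They differed for 3 genes without R172K replicate 2 (0.686% of all genes). The interval of this difference lay within 1.5-fold for 68 genes.

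**Figure D5:**
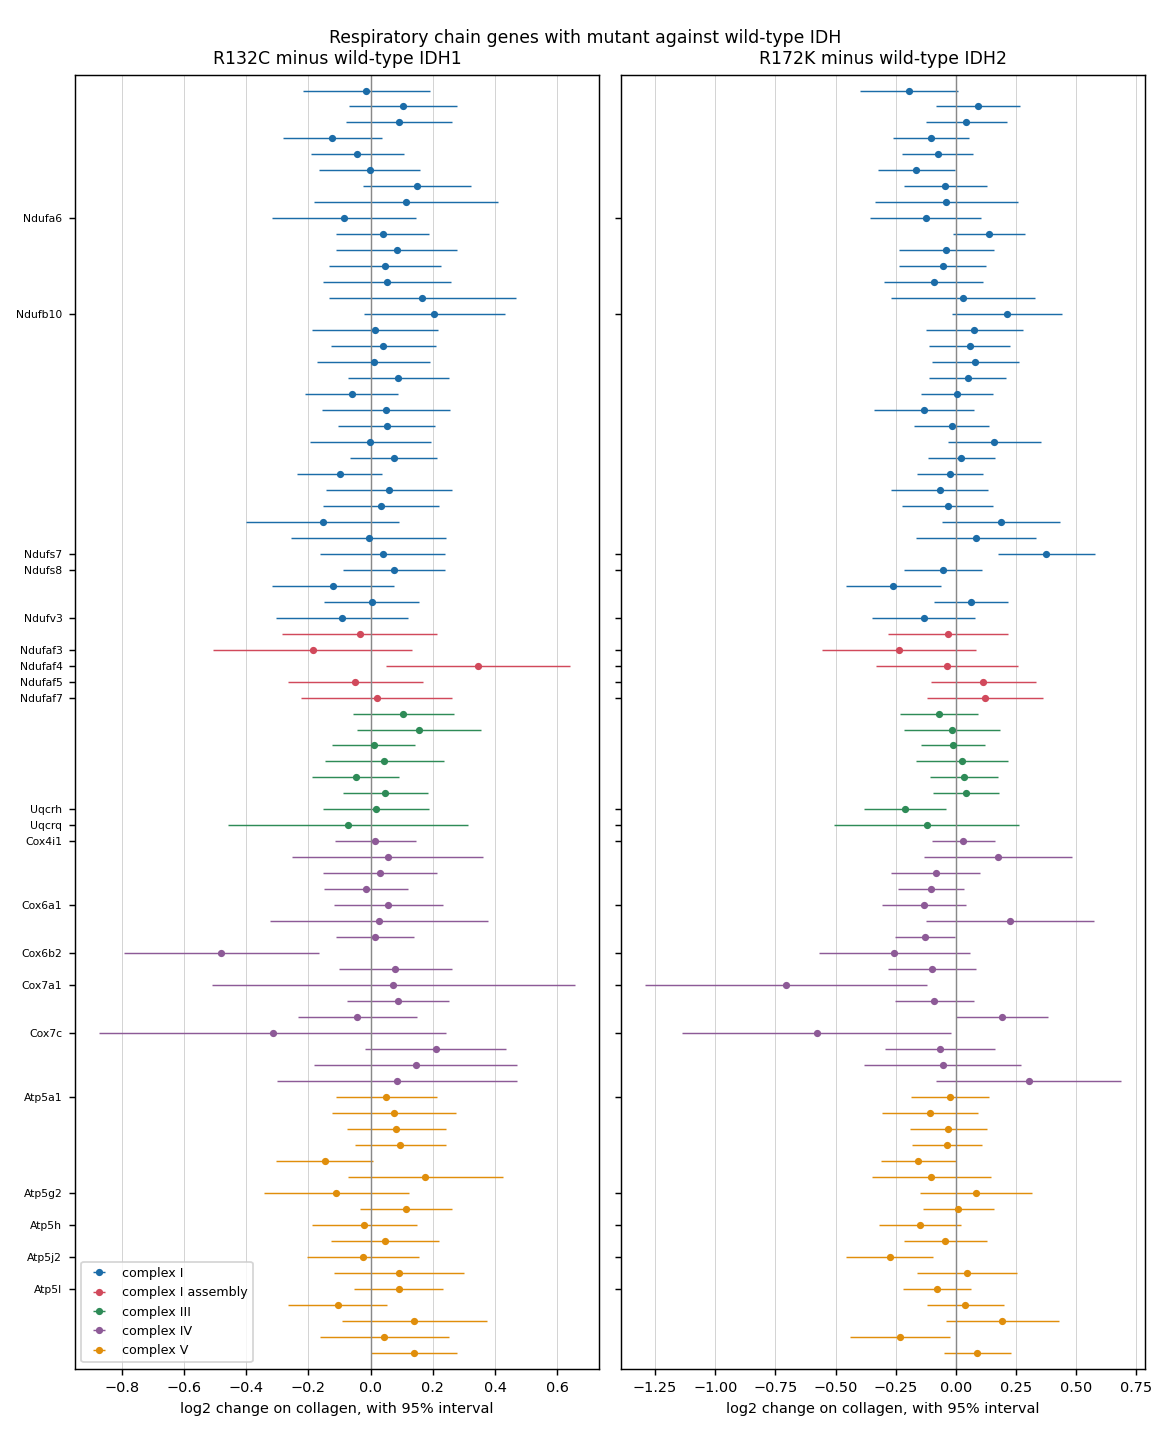
Change of each of the 80 genes (log2, horizontal axes, which differ in range) with R132C against wild-type IDH1 (left) and with R172K against wild-type IDH2 (right), on collagen. Points are fitted changes, lines are 95% intervals, colours mark the complex, and only genes named in the text are labelled. Most points lie within 0.25 of 0, and the widest intervals are those of the dim genes Cox7a1 and Cox7c.

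Around the chain a few genes did differ with R172K or over both mutants. With R172K, 0 rose and 1 fell of the 20 other chain and carrier genes (limma, background 1.73%). Of 16 assembly factors, 9 genes of mitochondrial DNA upkeep and 10 regulators, 1 rose and 0 fell in each list. Of 9 antioxidant enzymes, 74 mitochondrial and 42 cytosolic ribosomal proteins, 0 were called. Over both mutants the counts were the same (background 3.61%), save that 1 assembly factor also fell. With R132C against wild-type IDH1, 0 genes of the other lists rose and 0 fell (limma, background 0.0484%). Ppargc1b was 1.21 ± 0.21 (SE) higher with R172K than with wild-type IDH2 (limma, adjusted p = 0.0162) and 0.98 higher over both mutants (limma, adjusted p = 0.00469). It read 8.05 and 7.71 in the R172K arrays and 6.89 and 6.45 with wild-type IDH2. With replicate 2 alone its change was 1.04 and was not called (limma, adjusted p = 0.116), and the call was also lost without replicate 2 of wild-type IDH2. Atpif1, the inhibitor that keeps the ATP synthase from running backwards, was lower with R172K, with a change of -0.39 ± 0.07 (SE; limma, adjusted p = 0.0192), and lower over both mutants, with a change of -0.32 (limma, adjusted p = 0.00506). It read 12.09 and 12.07 against 12.47 and 12.46, and was called with either R172K array alone. Its R172K call held under 5 of 11 alternatives and was lost, among others, with the mean of its probe sets, with cyclic loess and without either array of wild-type IDH2.

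Cox18 was higher with R172K by 0.51 and Top1mt, the mitochondrial topoisomerase, by 0.57 (limma, adjusted p = 0.0259 and 0.0182), and with replicate 2 alone neither was called (adjusted p = 0.103 and 0.0713). Both calls held under 7 of 11 alternatives. Surf1 changed by -0.35 over both mutants (limma, adjusted p = 0.0448), a call that held under 5 of 15. Wild-type IDH1 and wild-type IDH2 against vector, which share the vector arrays, gave 0 called genes each (limma, background 0.0%) and 0 at an unadjusted p under 0.05 (1.03% and 0.936% of all genes). Their median changes were -0.03 and -0.04.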

How the data were processed

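The deposited values were probe set intensity on a linear scale, summarised by RMA per the submitters' processing notes, with no version given, and log2 was taken. Of 22690 probe sets, 64 were controls, 20380 carried 1 symbol, 691 several (8 of respiratory chain genes, left out) and 1555 none. One model with a mean for each of the 7 groups was fitted over the 14 arrays (limma 3.58.1, R 4.3.3; lmFit, eBayes with an intensity trend; 7 residual and 5.67 prior degrees of freedom), and 10 comparisons were drawn. A gene was called at an adjusted p below 0.05 (Benjamini-Hochberg, over all 12393 genes). Replicates are separate cultures per the series text.

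On simulated data with 200 changed genes among 12393, the fit recovered 47.8%, 95.5% and 100% of changes of log2 0.5, 1 and 2 for the plate effect in vector cells, 40.3%, 98.5% and 100% for R172K, and 10.4%, 79.1% and 98.5% for the difference between plate effects, with 11, 10 and 8 false calls. The changed genes were drawn from all genes, whose median SE was 0.13 against 0.09 for the 80 in the plate effects. The plate effects called 3628 genes in vector and 3215 in R132C cells, far more than were changed here. The recovery among the 80 genes was therefore not measured.

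Members and lists were chosen with earlier results of these data known. Named were up to 6 called genes per complex and direction, all assembly factors, isoform sets, the highest and lowest of each complex, and up to 4 genes per other list. Updating symbols added and removed 0 members. Alternatives were other probe set rules, a filter at the 30th percentile, cyclic loess, centring, no trend, only the arrays compared, a replicate block and each array left out. Detection calls were not used here. Cox7c, Ndufs7, Atp5j2, Cox6a1, Uqcrq, Esrra, Gabpa, Ndufv1, Ndufv2 and Ptprc were named after their values were seen. Promoters came from RefSeq (GRCm38.p6).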

Additional observations from a re-analysis of the deposited data

How the results depend on the processing

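The shares of all genes called under the alternatives are not set beside the counts below. These counts therefore do not show whether the respiratory chain genes moved more than others did. The count of called respiratory chain genes was 10 for the plate effect in vector cells and became 19 of 149 with every probe set by itself, 18 among genes above the 30th percentile, 23 with cyclic loess, 6 without an intensity trend and 17 with the replicate block. With 1 array left out it ran from 3 to 13. For the plate effect in R132C cells the 16 calls became 9 without a trend and 4 to 6 with 1 array left out. For R172K the count of 0 became 2 with the replicate block and ran from 0 to 22 with 1 array left out. For both mutants it became 2 with the block and ran from 0 to 12, and for the difference between mutants it ran from 0 to 3. The counts of the other 5 comparisons stayed at 0 under all alternatives. Atp5g2 in R132C cells turned to -0.041 with the mean of its probe sets (adjusted p = 0.849). Whether replicate numbers pair the cultures is not known: deviations of same-numbered arrays correlated above 0.1 in 13 of 21 pairs of groups, including all 10 pairs of collagen groups (0.111 to 0.487), and no source says that a number marks a shared day or batch. With 2 cultures a group the numbers were not taken as pairs. The causes of these shifts were not tested. Where 1 array was left out, the smaller number of arrays and the part of that array cannot be told apart. In the simulated data, drawn from all genes, changes of log2 0.5 were recovered only in part, so smaller changes may have been missed.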
